A study of Rattus norvegicus with 6 samples.

Results

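Runx1, Runx2, Runx3 and Cbfb, the 4 genes described here of 30560 in the files, encode the rat RUNX transcription factors with a runt DNA-binding domain and their shared partner. The genes were picked by symbol, and they were chosen by their measured levels in oligodendrocyte precursor cells (OPCs), astrocytes, microglia and macrophages across the libraries. Their values in these 4 classes are therefore given as a description, with no test. All 4 symbols were found once each, with 4175 UMIs (unique molecular identifiers, counts of captured RNA molecules) for Runx1 (ENSRNOG00000001704), 17625 for Runx2 (ENSRNOG00000020193), 217 for Runx3 (ENSRNOG00000054217) and 5149 for Cbfb (ENSRNOG00000014647) over all libraries.

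The study examined 11 male Wistar rats aged 12 weeks by single-nucleus RNA sequencing, 48 h after the middle cerebral artery on the right side was occluded for good (MCAO) or after a sham operation that omitted the occluding filament. Nuclei of the rats of each arm were pooled by hemisphere into 6 libraries, namely Sham L and Sham R from the same 4 Sham rats, mMCAO contra and mMCAO ipsi from the same 3 rats whose infarctions were moderate, and the severe pair, sMCAO contra and sMCAO ipsi, from 4 other rats. Contra is the left hemisphere, opposite the lesion, and ipsi the right hemisphere that holds it. The 2 libraries of a group (Sham, MCAO contra, MCAO ipsi) are pools of animals. A p-value thus covers only the spread between such pools. In Sham this is the spread between hemispheres of the same rats. In MCAO contra and MCAO ipsi it also holds the difference between moderate and severe infarction.

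RUNX factors bind DNA as heterodimers with core-binding factor beta, the product of Cbfb, which does not contact DNA itself but strengthens binding. Runx1 is best known as a regulator of blood cell formation and is expressed in microglia, the resident phagocytes of the brain, and in other myeloid cells. Runx2 is the central regulator of bone and cartilage development, and Runx3 acts in lymphocytes, dendritic cells and sensory neurons. RUNX factors work with co-repressors of the TLE family and with acetyltransferases, and they cooperate with SMAD proteins downstream of TGF-beta and BMP receptors.

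The letters TGTGGT, or ACCACA on the other strand, form the core that RUNX factors bind. RefSeq promoter sequences of build GRCr8 were searched on both strands over the 250 bases before each annotated start. The core occurred in 14.5% of the 33469 windows of all genes and in 2 of the 6 windows of the members. The 3 matches are shown because they lie before the members' own start sites, with the core in capitals and the plus strand written 5′ to 3′.
Runx2, upstream start on chr9:23664970-23664999: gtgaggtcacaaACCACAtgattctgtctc
Runx3, upstream start on chr5:152644123-152644152: cctggtccctcaACCACAgaaccacaaggc
Runx3, upstream start on chr5:152644131-152644160: ctcaaccacagaACCACAaggccaggccct
The Runx2 core lay 76 bases before the start, and the Runx3 cores lay 135 and 127 bases before it, so that the Runx3 windows overlap. No match was found in the windows of Runx1 and Cbfb or before the downstream starts of Runx2 and Runx3. A match describes letters only and was not linked to binding or to expression.

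Nuclei were assigned to classes from marker genes, none of which is a member, and UMIs were summed over the nuclei of a class in each library. Levels are counts per 1000000 UMIs of such a sum (CPM), and intervals are exact 95% Poisson or binomial intervals that cover counting error only. The deposited libraries held 8774 to 14508 nuclei and 33012945 to 52513380 UMIs each, and the median nucleus had 2059 to 3360 UMIs. Pairs of libraries shared 118 to 281 cell barcodes. The own lists of microglia and macrophages hold the shared myeloid list too. Astrocyte, microglia and macrophage sums took 92.9%, 81.1% and 90.1% of their marker UMIs from their own lists. In OPC sums this was 44.5%, the remainder being mostly astrocyte and neuron markers (1202 to 2942 CPM and 1183 to 2156 CPM, against 2947 to 4094 CPM of OPC markers), although OPC markers were the highest list in every library. Of the astrocyte markers, Gpc5 (1616 CPM) and Slc1a3 (230 CPM) led in OPC sums over all libraries. Aqp4 stood there at 6.28 CPM against 832 CPM in astrocytes, and Gja1 at 9.95 against 429 CPM. How far RNA of neighbouring classes was part of what was measured in OPC sums was not tested. Fewer nuclei of a class and less RNA per nucleus cannot be told apart in counts of gated nuclei.

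Runx1 was highest in nuclei with myeloid markers, that is in microglia, macrophages and nuclei that matched no single myeloid class. Sham libraries held only 5 and 8 microglia nuclei and no macrophage nuclei, so the myeloid classes were described in the MCAO libraries. Microglia numbered 122 (mMCAO contra) and 60 (sMCAO contra), against 440 (mMCAO ipsi) and 546 (sMCAO ipsi). Macrophages numbered 6 and 12 in the contra libraries, too few to be read, and 117 and 617 in the ipsi libraries.

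In microglia, Runx1 stood at 699 CPM (73 UMIs) in mMCAO contra, 604 CPM (283 UMIs) in mMCAO ipsi, 793 CPM (37 UMIs) in sMCAO contra and 563 CPM (478 UMIs) in sMCAO ipsi. Both ipsi levels lay below both contra levels, with an ipsi over contra ratio of 0.794 (0.649 to 0.978). Within each arm the intervals of ipsi and contra overlapped. They were 536 to 679 and 548 to 879 CPM in the moderate arm, and 514 to 616 and 559 to 1093 CPM in the severe arm. The 4 UMIs of the 2 Sham sums, in 13 nuclei, gave no usable level. At least 1 Runx1 UMI was found in 40.2% to 50.4% of microglia in the MCAO libraries, and in 24.0% to 33.3% after each nucleus was thinned to 500 UMIs, against 0.0938% to 0.714% of thinned oligodendrocytes of these libraries. In the MCAO libraries the median microglia nucleus held 647 to 1361 UMIs and the median oligodendrocyte nucleus 696 to 1121. In macrophages Runx1 reached 398 CPM (36 UMIs) in mMCAO ipsi and 451 CPM (303 UMIs) in sMCAO ipsi, a ratio of 1.13 (0.800 to 1.65) between the infarct sizes. Nuclei that matched no single myeloid class lay between 386 and 715 CPM in the MCAO libraries. Ipsilateral macrophage levels were lower than those of ipsilateral microglia in each of the infarct sizes. Of the macrophage markers in macrophage sums, Gpnmb gave 1606 UMIs, Lilrb4 1044 and Mrc1 466, against 24 for Ccr2 and 2 for Ms4a7. Gpnmb gave 283 UMIs in microglia. The paper proposes that microglia and macrophages converge on a common phenotype in infarcted tissue. How cleanly the gate parted them was not tested, which limits every comparison between them. Runx1 took 5.34 to 7.52 UMIs per 100 UMIs of the myeloid, microglia and macrophage markers in microglia of the MCAO libraries and 3.09 to 3.79 in ipsilateral macrophages.

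Runx2 in microglia was 67.0 CPM in mMCAO contra, 66.2 CPM in mMCAO ipsi, 42.9 CPM in sMCAO contra and 120 CPM in sMCAO ipsi. The severe ipsi library exceeded the moderate one 1.82-fold (1.20 to 2.81), from 102 and 31 UMIs, while the contra values rested on 7 and 2 UMIs. Macrophages gave 199 CPM in mMCAO ipsi and 143 CPM in sMCAO ipsi, whose intervals overlapped. Nuclei that matched no single myeloid class gave 144 CPM in mMCAO ipsi and 258 CPM (216 to 306) in sMCAO ipsi. The latter interval lay above those of microglia (98 to 146 CPM) and macrophages (116 to 175 CPM) of sMCAO ipsi. Runx2 is known in bone and is not a customary marker of phagocytes, and in these sums it was higher in macrophages than in microglia of mMCAO ipsi, where the intervals of 118 to 315 CPM and 45.0 to 94.0 CPM did not meet. In sMCAO ipsi the corresponding intervals overlapped.

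Runx3 was confined to low counts. Microglia held 9 UMIs in mMCAO ipsi (19.2 CPM), 26 in sMCAO ipsi (30.6 CPM), 1 in sMCAO contra and 0 in mMCAO contra. Macrophages held 3 UMIs in mMCAO ipsi (33.2 CPM) and 36 in sMCAO ipsi (53.6 CPM). Myeloid nuclei of no single class held 6 UMIs in mMCAO ipsi and 48 in sMCAO ipsi (93.1 CPM). OPC, astrocyte, oligodendrocyte, endothelial and mural sums had 0 Runx3 UMIs in all 6 libraries. In OPCs of sMCAO ipsi, the deepest of the OPC sums, a floor of 3 counts corresponds to 4.11 CPM, and the upper limit of the exact interval was 5.05 CPM. Neurons held 16 Runx3 UMIs in all, at 0.03 to 0.33 CPM.

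Cbfb, the shared partner, was present in every class. Microglia showed 163 CPM in mMCAO contra, 107 CPM in sMCAO contra and 194 CPM in both ipsi libraries. Ipsilateral macrophages showed 210 CPM after moderate and 180 CPM after severe infarction. The ipsi over contra ratio in microglia was 1.34 with an interval of 0.863 to 2.17, which includes no difference.

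**Figure D1:**
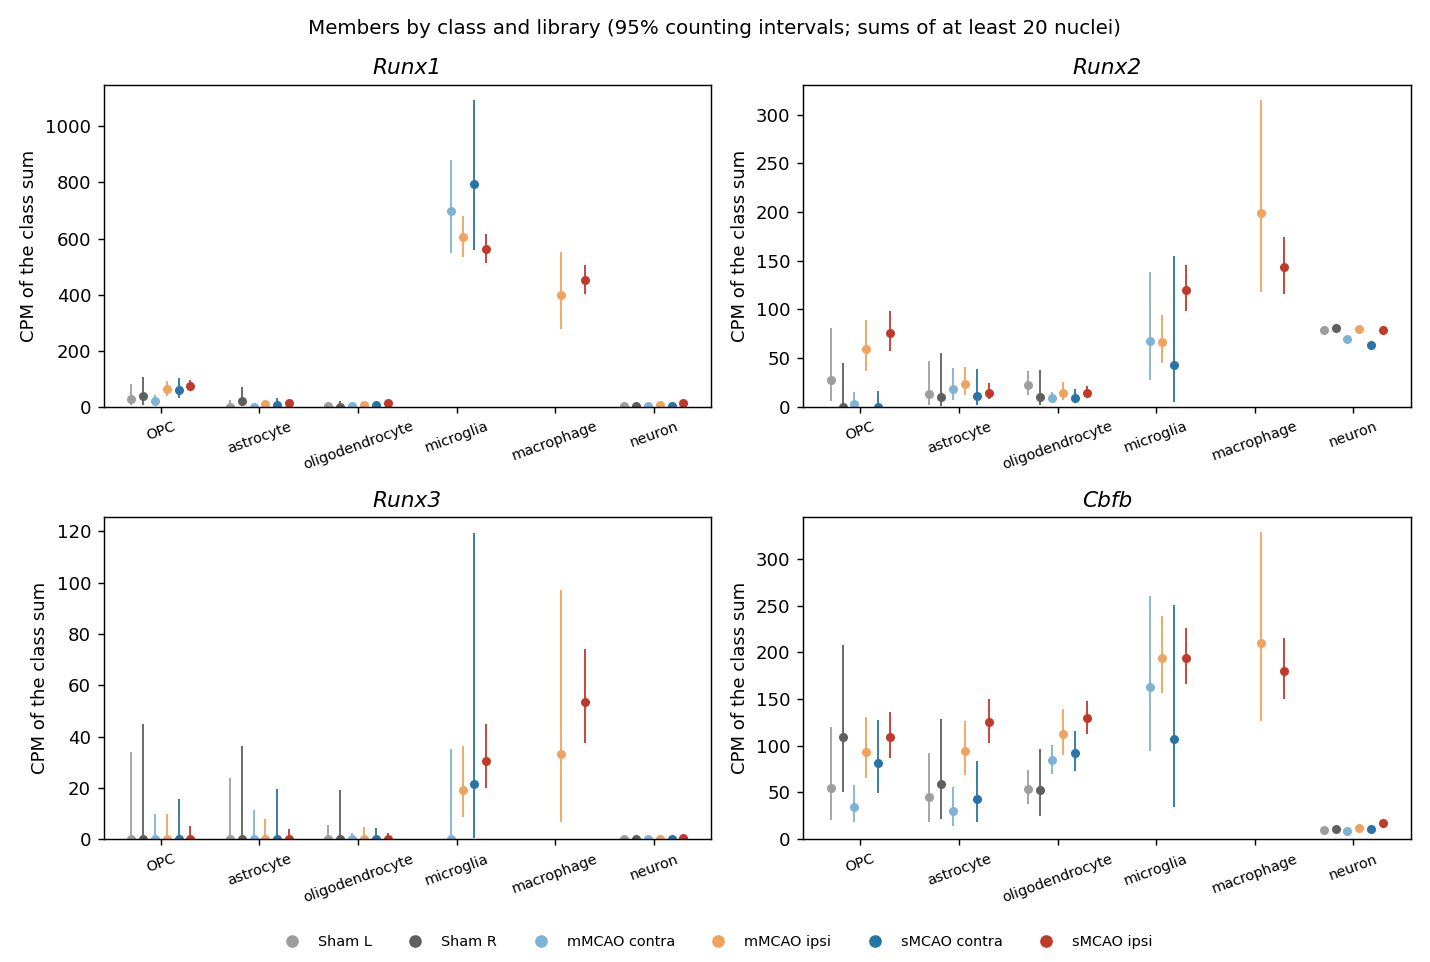
Levels of the 4 genes in CPM of the class sum (y axis, linear and scaled per gene) by class (x axis), with 1 point per library and vertical lines for exact 95% counting intervals; only sums of at least 20 nuclei are drawn. Runx1 is high in microglia and macrophages in all libraries drawn, Runx2 in OPCs is near 0 in both contra libraries and higher in both ipsi libraries, Runx3 is at 0 in OPCs, astrocytes and oligodendrocytes, and Cbfb reaches 180 to 210 CPM in ipsilateral microglia and macrophages.

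OPC nuclei, the dividing precursors of myelinating oligodendrocytes, showed Runx1 at 27.6 CPM in Sham L (3 UMIs), 36.6 CPM in Sham R (3 UMIs), 20.9 CPM in mMCAO contra (8 UMIs), 61.6 CPM in mMCAO ipsi (23 UMIs), 60.0 CPM in sMCAO contra (14 UMIs) and 72.5 CPM in sMCAO ipsi (53 UMIs). The ipsi libraries were highest, but sMCAO contra lay next to mMCAO ipsi. The ipsi over Sham ratio was 2.19 (0.960 to 6.15), which includes no difference, and ipsi over contra was 1.93 (1.19 to 3.25), and the members had been chosen on these contrasts. Within the rats with moderate infarctions ipsi exceeded contra 2.94-fold (1.27 to 7.61), and within those with severe infarctions 1.21-fold (0.662 to 2.36). These intervals count UMIs as independent, but the 23 UMIs of mMCAO ipsi came from 15 nuclei and the 8 of mMCAO contra from 6. After thinning, 0.619% of mMCAO ipsi OPCs (2 nuclei) kept a Runx1 UMI, against 1.03% in mMCAO contra (3 nuclei) and 1.0% and 1.14% in Sham. In the severe arm these shares were 3.14% in ipsi and 1.03% in contra. The thinned intervals of ipsi and contra overlapped in both arms, and the moderate excess was not seen in thinned nuclei. Marker gates of other design (versions 3 and 1) gave ipsi over Sham ratios of 6.42 and 14.3 for Runx1, so that its size depended on which nuclei were called OPCs.

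Markers of the myeloid, microglia and macrophage lists were present in OPC sums at 295 to 573 CPM without an order that followed the groups, at 418 CPM in mMCAO ipsi and 312 CPM in sMCAO ipsi. Of the 29 genes on these lists, 6 were at 0 in the OPC sums (Ms4a7, Cd163, F13a1, Ccr2, Siglech and P2ry13), while Apbb1ip gave 234 UMIs and Gpnmb 119. Siglech was at 0 in microglia too and Ms4a7 had 2 UMIs in macrophages, so their absence in OPCs carries no information. Macrophage markers, of which Gpnmb gave nearly all UMIs in OPCs, were at 0 and 12.2 CPM in Sham, 23.6 and 21.4 CPM in contra and 72.4 and 118 CPM in ipsi, and their part in the member levels was not tested. Runx1 took 14.7 UMIs per 100 myeloid marker UMIs in mMCAO ipsi, 23.3 in sMCAO ipsi, 16.1 in sMCAO contra, 5.63 in mMCAO contra and 6.38 to 9.38 in Sham. In microglia of the MCAO libraries it took 5.34 to 7.52, and Sham L and sMCAO contra lay above that range as the ipsi values did. The make-up of the marker UMIs differed between these classes. Apbb1ip exceeded Dock8 in OPC sums (123 against 28.3 CPM) and lay below it in microglia (918 against 1609 CPM). The values per 100 marker UMIs are therefore not directly comparable between OPCs and microglia. In OPC nuclei with no UMI of these markers the ipsi over Sham ratio of Runx1 was 5.44 (0.896 to 223).

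Runx2 showed the widest gap between hemispheres in OPCs. It gave 3 UMIs in Sham L (27.6 CPM), 0 in Sham R, 1 in mMCAO contra (2.62 CPM), 22 in mMCAO ipsi (59.0 CPM), 0 in sMCAO contra and 55 in sMCAO ipsi (75.3 CPM). Both ipsi libraries lay above all 4 others, and the 195 contralateral nuclei of the severe arm held none. The ipsi over Sham ratio was 4.43 (1.46 to 22.0), on 3 Sham UMIs. The other gates gave 1.70 (1.10 to 2.71, version 1, with 27 Sham UMIs) and 3.62 (1.37 to 13.5, version 3). Without Sham R the ratio was 2.53 (0.832 to 12.5), which includes no difference. Ipsi over contra was 22.5-fold (3.64 to 930) after moderate infarction and at least 5.86-fold after severe infarction, where the bound sets 3 counts against the 0 of the contra sum. The 55 UMIs of sMCAO ipsi came from 21 of 350 nuclei, and the 22 of mMCAO ipsi from 16 of 323. After thinning to 500 UMIs per nucleus 1.86% and 1.43% of ipsilateral OPCs kept a Runx2 UMI, against 0% to 1% in the other OPC sums and 0.361% to 1.46% in oligodendrocytes, at which level a share cannot be told from background.

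Cbfb in OPCs was 55.3 CPM in Sham L, 110 CPM in Sham R, 34.0 CPM in mMCAO contra, 93.8 CPM in mMCAO ipsi, 81.4 CPM in sMCAO contra and 110 CPM in sMCAO ipsi. The Sham libraries differed widely from each other, and mMCAO contra lay below both. The ipsi over Sham ratio was 1.32 (0.770 to 2.44) and ipsi over contra 2.0 (1.35 to 3.07). Without Sham L the first was 0.95, and with gate version 1 it was 2.64.

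OPC nuclei with at least 1 UMI of 15 cell cycle genes carried most of the ipsilateral Runx1 and Runx2 UMIs. In sMCAO ipsi, 176 such nuclei held 48 Runx1 UMIs (110 CPM) and 55 Runx2 UMIs (126 CPM), and the 174 nuclei without a cell cycle UMI held 5 (17.05 CPM) and 0. In mMCAO ipsi, 133 such nuclei held 18 Runx1 UMIs (97.2 CPM) and 16 Runx2 UMIs (86.4 CPM), and the other 190 held 5 (26.6 CPM) and 6 (31.9 CPM). The contra libraries held fewer such nuclei, 38 in mMCAO contra with 5 Runx1 UMIs (85.8 CPM) and 31 in sMCAO contra with 10 (203 CPM), so that Runx1 in this subset was close between hemispheres in the moderate arm and higher in contra in the severe arm, with overlapping intervals in the moderate arm (27.8 to 200 CPM and 57.6 to 154 CPM) and in the severe arm (97.5 to 374 CPM and 80.9 to 146 CPM). Runx2 had 0 UMIs in both contra subsets with a cell cycle UMI. The direction between the subsets of the ipsi libraries was the same for Cbfb, at 146 against 54.5 CPM in sMCAO ipsi and 113 against 74.5 CPM in mMCAO ipsi. Nuclei with a cell cycle UMI were also deeper, with medians of 2283 against 1589 UMIs and 1269 against 896 UMIs, and the part of depth in this split was not tested. Among OPCs without a cell cycle UMI, Runx1 in both ipsi libraries lay between the lowest and the highest of the Sham and contra values (9.27 to 41.4 CPM). Runx2 in mMCAO ipsi (31.9 CPM) lay above the Sham and contra values of these nuclei (0 to 20.9 CPM), and in sMCAO ipsi it was at 0.

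**Figure D2:**
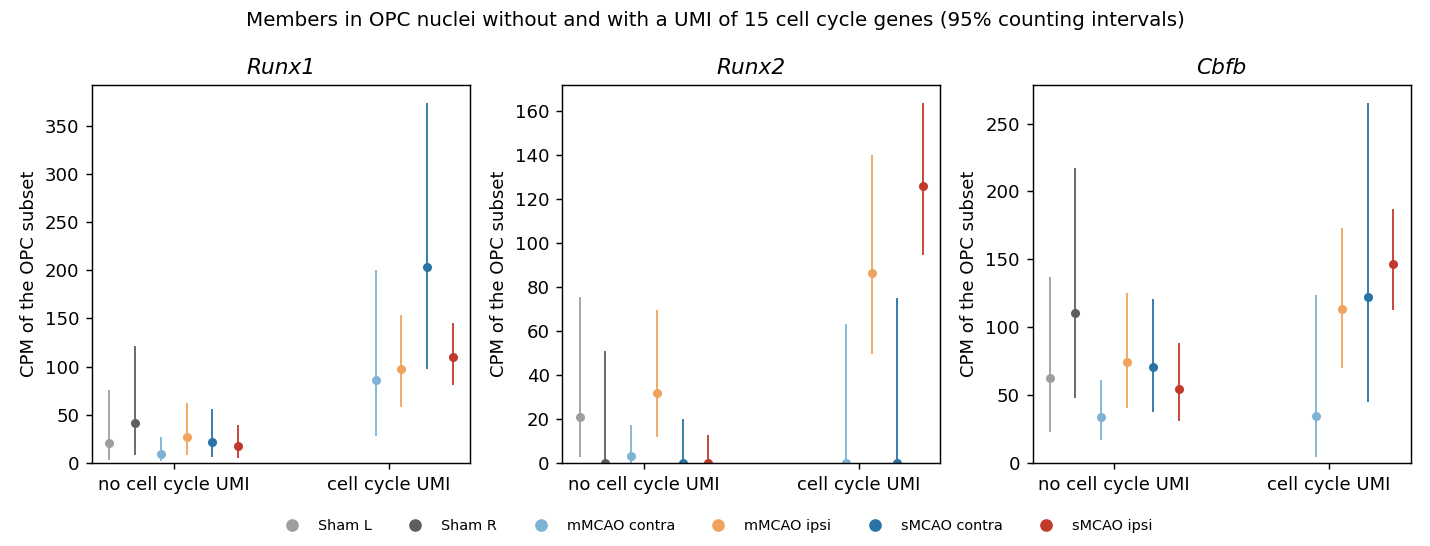
Levels of Runx1, Runx2 and Cbfb in CPM (y axis, linear) in OPC nuclei without and with a UMI of the cell cycle list (x axis), 1 point per library with exact 95% counting intervals; subsets under 20 nuclei, which include both Sham subsets with a cell cycle UMI, are not drawn. Runx1 is higher with a cell cycle UMI in the 4 MCAO libraries, and Runx2 in both ipsi libraries, where it reaches 86.4 and 126 CPM.

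In astrocytes, which support neurons and form the glial scar, Runx1 was rare: 0 UMIs in Sham L, 2 in Sham R (19.6 CPM), 0 in mMCAO contra, 5 in mMCAO ipsi (10.5 CPM), 1 in sMCAO contra (5.34 CPM) and 12 in sMCAO ipsi (13.1 CPM). The highest level was in a Sham library, from 2 UMIs. The ipsi over contra ratio of Runx1 was 6.29 (0.986 to 263, from 17 and 1 UMIs) and ipsi over Sham 1.57 (0.372 to 14.0). Runx2 ranged from 9.82 to 23.0 CPM over the 6 libraries with 1 to 13 UMIs each, and its ipsi over Sham ratio of 1.47 had an interval of 0.448 to 7.65. These intervals include no difference at this depth.

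Cbfb was the member whose level in astrocytes separated the ipsi libraries from the others. It was 45.0 CPM in Sham L, 58.9 CPM in Sham R, 30.4 CPM in mMCAO contra, 94.3 CPM in mMCAO ipsi, 42.7 CPM in sMCAO contra and 125 CPM in sMCAO ipsi. Ipsi over Sham was 2.27 (1.29 to 4.36). Ipsi over contra was 3.10 (1.54 to 6.91) in the moderate and 2.93 (1.44 to 6.95) in the severe arm. After thinning, the share of astrocytes with a Cbfb UMI was 4.30% in mMCAO ipsi and 7.58% in sMCAO ipsi, against 1.30% to 3.54% in the other 4 libraries. The intervals of mMCAO ipsi (2.4% to 7.0%) and Sham L (1.4% to 7.1%) overlapped. Ipsi over Sham had an interval of 0.875 to 5.38 without Sham L and 0.990 to 3.77 without sMCAO ipsi, which include no difference. The intervals without Sham R (1.21 to 6.4) and without mMCAO ipsi (1.39 to 4.80) did not include it. The ratio without nuclei that held a myeloid marker UMI was 2.39.

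**Figure D3:**
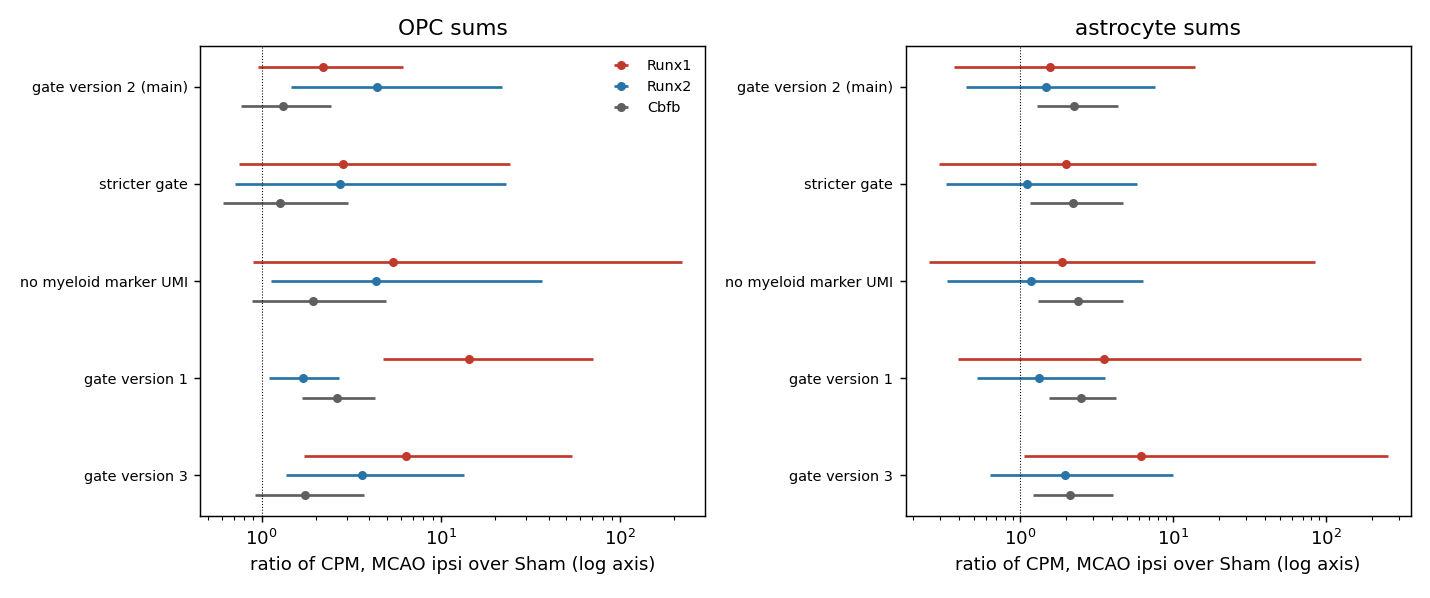
Ratio of CPM in MCAO ipsi over Sham (x axis, log scale, dotted line at 1) for Runx1, Runx2 and Cbfb in OPC sums and astrocyte sums, under the gate used, a stricter gate, the gate without nuclei that hold a myeloid marker UMI, and both other gate versions (y axis); lines are 95% counting intervals. Runx1 in OPCs moves from 2.19 to 14.3 with the gate, while Cbfb in astrocytes lies between 2.13 and 2.51 in all 5.

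The background of these values was counted over all genes with edgeR's quasi-likelihood test, where a called gene had an adjusted p below 0.05 and differed by 0.6 or more on the log2 scale in either direction. In OPC sums 5.55% of 6179 genes were called in ipsi against Sham, 7.23% in ipsi against contra and 0% in contra against Sham, where 513 genes had an unadjusted p under 0.05. Runx1, Runx2 and Cbfb passed the filter on low counts in OPCs, and 0, 1 (Runx2) and 0 of these 3 were called in the 3 contrasts. In astrocyte sums 15.7%, 12.9% and 0% of 5596 genes were called in the same order, with 551 at an unadjusted p under 0.05 in contra against Sham. Only Cbfb passed the filter there, and it was called in ipsi against contra but not in the other contrasts. As the members were chosen on these contrasts, nothing is read from these counts.

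The members had been chosen by their levels in other classes, and in oligodendrocytes and neurons they were tested. These sums come from the same libraries, with free RNA left in, and earlier results of these data were known. The tests are thus not independent of the choice of members. In oligodendrocytes, the myelinating glia, Cbfb stood at 53.6 CPM in Sham L, 52.3 CPM in Sham R, 84.5 CPM in mMCAO contra, 113 CPM in mMCAO ipsi, 92.7 CPM in sMCAO contra and 129 CPM in sMCAO ipsi. Both ipsi libraries lay above both contra libraries, and these above both Sham libraries. Cbfb was higher in ipsi than in Sham by 1.19 ± 0.21 on the log2 scale (SE, n = 2 against 2; edgeR quasi-likelihood test, adjusted p = 0.0266), in a contrast where 3.57% of 8574 genes were called. It was 1 of 2 members that passed the filter, and the only one called. This call was lost with DESeq2 (adjusted p = 0.0613), with the stricter gate (0.0801), with only the Sham and ipsi libraries in the fit (0.107) and when any Sham or contra library was left out (0.0779 to 0.333), while the log2 difference stayed between 0.98 and 1.30 over all alternatives run.

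Against contra, oligodendrocyte Cbfb differed by 0.45 ± 0.17 (adjusted p = 0.311 in edgeR), in a contrast with 0.0816% of genes called. Contra against Sham gave 0.74 ± 0.22 (edgeR adjusted p = 0.526), where 0% of genes were called and 755 had an unadjusted p under 0.05. Neither of these passed the test. Runx2 in oligodendrocytes was 22.3 CPM in Sham L, 10.4 CPM in Sham R, 9.08 CPM in mMCAO contra, 14.3 CPM in mMCAO ipsi, 9.39 CPM in sMCAO contra and 14.4 CPM in sMCAO ipsi. The ipsi values lay between those of the Sham libraries and the contra values below both, and ipsi against Sham gave -0.42 ± 0.44 (edgeR adjusted p = 0.667). Runx1 was too low for the filter, with 1 UMI in the Sham sums, 10 in the contra sums and 24 in the ipsi sums, 19 of them in sMCAO ipsi. Myeloid, microglia and macrophage markers in these oligodendrocyte sums were 99.8 and 105 CPM in Sham, 106 and 121 CPM in contra and 175 and 164 CPM in ipsi, and their part in the member levels was not tested.

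Neurons carried Runx2 in every library. In all neuron nuclei it stood at 79.0 CPM in Sham L, 81.1 CPM in Sham R, 69.4 CPM in mMCAO contra, 80.2 CPM in mMCAO ipsi, 63.9 CPM in sMCAO contra and 78.5 CPM in sMCAO ipsi, from 1645 to 3112 UMIs each. The contra libraries were lowest. None of the contrasts passed the test: ipsi against Sham gave -0.12 ± 0.08 (edgeR adjusted p = 0.337), ipsi against contra 0.26 ± 0.08 (adjusted p = 0.0966) and contra against Sham -0.37 ± 0.08 (adjusted p = 0.132). At least 1 Runx2 UMI was present in 21.7% to 44.4% of glutamatergic nuclei, and in 3.50% to 6.21% after thinning to 500 UMIs, compared with 0.361% to 1.46% of thinned oligodendrocytes.

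Runx2 differed in level between kinds of neurons. Glutamatergic nuclei held 92.2, 89.0, 86.1, 91.4, 73.9 and 116 CPM in Sham L, Sham R, mMCAO contra, mMCAO ipsi, sMCAO contra and sMCAO ipsi. Medium spiny neurons, the projection neurons of the striatum, held 57.9, 62.0, 27.0, 29.7, 39.5 and 33.1 CPM in the same order, lower than glutamatergic nuclei in each library and lower in all 4 MCAO libraries than in both Sham libraries. Other GABAergic nuclei held 87.1, 98.4, 69.2, 82.3, 75.4 and 42.4 CPM, with sMCAO ipsi lowest. MCAO ipsi over Sham was 1.10 (1.04 to 1.16) in glutamatergic nuclei, 0.527 (0.425 to 0.648) in medium spiny neurons and 0.672 (0.604 to 0.747) in other GABAergic nuclei by counting error alone. In medium spiny neurons contra over Sham was nearly as low, at 0.541 (0.472 to 0.620). Their numbers also differed, from 1833 and 1797 nuclei in Sham to 1325 and 1087 in contra and 469 and 253 in ipsi. Which striatal parts the tissue slices held in each arm was not tested.

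Runx1 in neurons was low, at 2.72 CPM in Sham L, 2.29 CPM in Sham R, 2.92 CPM in mMCAO contra, 5.37 CPM in mMCAO ipsi, 2.98 CPM in sMCAO contra and 12.0 CPM in sMCAO ipsi. The ipsi libraries lay above the other 4, and sMCAO ipsi stood well above mMCAO ipsi. In edgeR's quasi-likelihood test Runx1 was higher in ipsi than in Sham by 1.63 ± 0.32 on the log2 scale (n = 2 against 2, adjusted p = 0.0254) and than in contra by 1.52 ± 0.32 (adjusted p = 0.0413), with 5.04% and 2.06% of 16292 genes called. In contra against Sham it differed by 0.12 ± 0.34 (edgeR adjusted p = 0.882), with 0% of genes called and 2850 at an unadjusted p under 0.05. Runx1 was the only called member of the 3 that passed the filter. The call against Sham was kept with DESeq2 (adjusted p = 1.1e-04) and lost with only the Sham and ipsi libraries in the fit (0.0590) and without any Sham or contra library (0.0561 to 0.223). Without sMCAO ipsi the difference was 1.04 and without mMCAO ipsi 2.08, and both were called.

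The neuronal Runx1 UMIs of sMCAO ipsi lay mainly in glutamatergic nuclei. There it was 2.99 CPM in Sham L, 3.13 CPM in Sham R, 2.75 CPM in mMCAO contra, 5.37 CPM in mMCAO ipsi, 3.31 CPM in sMCAO contra and 19.2 CPM in sMCAO ipsi, from 202 UMIs in the last. Medium spiny neurons stayed at 0.42 to 2.38 CPM and other GABAergic nuclei at 2.74 to 5.28 CPM. The share of glutamatergic nuclei with a Runx1 UMI was 11.1% in sMCAO ipsi and 1.04% to 2.60% in the other libraries, and 0.850% against 0.0735% to 0.275% after thinning, while oligodendrocytes of sMCAO ipsi had 0.714%. The median glutamatergic nucleus of sMCAO ipsi was deeper (8599 UMIs) than elsewhere (3187 to 5013 UMIs). Myeloid, microglia and macrophage markers in glutamatergic sums were 18.2 to 28.3 CPM in Sham and contra, 46.9 CPM in mMCAO ipsi and 40.5 CPM in sMCAO ipsi. Runx1 per 100 of these marker UMIs was 47.4 in sMCAO ipsi against 11.4 to 17.2 in the other 5 libraries and 5.34 in microglia of sMCAO ipsi. The Sham values, 13.9 and 17.2, lay above that microglia value too. Whether the make-up of the marker UMIs was alike in neurons and microglia was not tested, so the values of these classes are not directly comparable. The part of free RNA of other glia in neuronal Runx1 was not tested.

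Cbfb in neurons was 9.48 CPM in Sham L, 11.1 CPM in Sham R, 9.17 CPM in mMCAO contra, 12.0 CPM in mMCAO ipsi, 10.6 CPM in sMCAO contra and 17.8 CPM in sMCAO ipsi. It differed by 0.41 ± 0.17 between ipsi and Sham (edgeR adjusted p = 0.139) and did not pass the test. In glutamatergic nuclei sMCAO ipsi again stood apart, at 20.9 CPM against 8.15 to 11.6 CPM elsewhere.

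**Figure D4:**
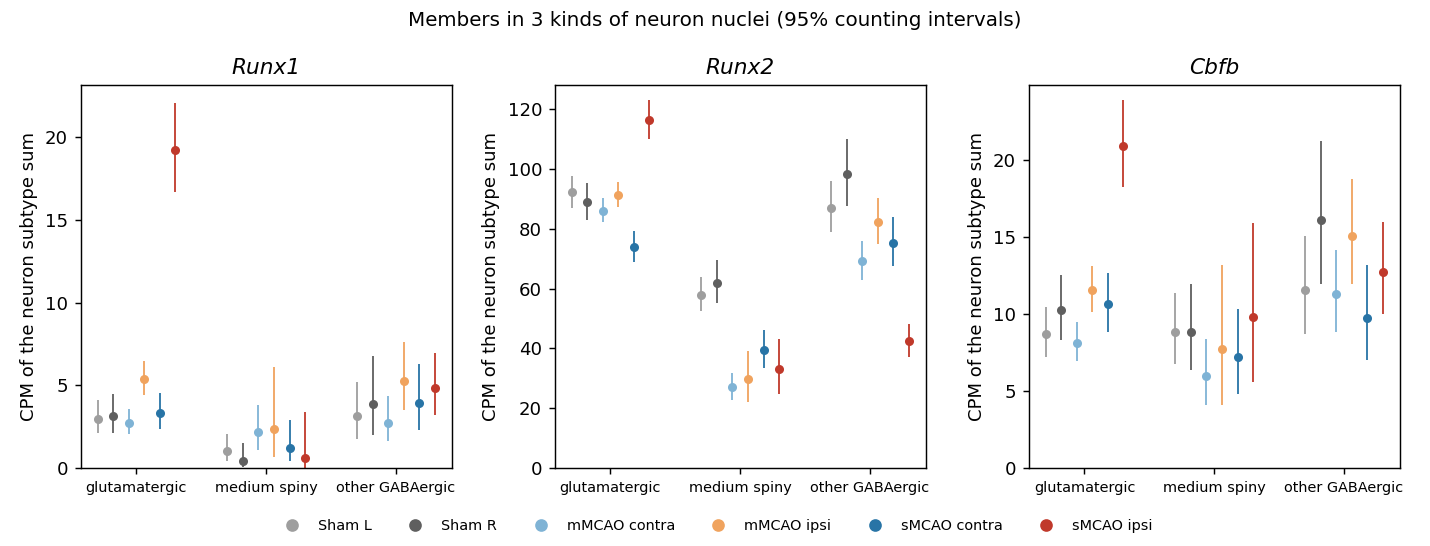
Levels of Runx1, Runx2 and Cbfb in CPM (y axis, linear and scaled per gene) in glutamatergic, medium spiny and other GABAergic nuclei (x axis), 1 point per library with exact 95% counting intervals. In glutamatergic nuclei sMCAO ipsi is highest for all 3 genes, and Runx2 in medium spiny neurons is lower in the 4 MCAO libraries (27.0 to 39.5 CPM) than in both Sham libraries (57.9 and 62.0 CPM).

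Genes that act with RUNX factors were counted beside the share of all genes called. Of the 24 cofactors and modifiers listed, 13 were tested in OPC sums and 0 were called in ipsi against Sham by edgeR (1 had an unadjusted p under 0.05), where 5.55% of all genes were called, with a median log2 difference of -0.16 beside 0.02 over all genes. The acetyltransferase genes Ep300 and Crebbp gave -0.33 and -0.02, and neither was called. Of 20 genes of TGF-beta and BMP signalling 14 were tested and 0 called (2 at an unadjusted p under 0.05), with a median of 0.18. Against contra, where 7.23% of all genes were called, 3 of these 14 were called: Smad3, a transducer of TGF-beta signals, at 1.76, the receptor gene Tgfbr2 at 1.46 and the inhibitory Smad7 at -1.70 (edgeR adjusted p = 0.0447, 0.0195 and 0.0362). Ep300, Crebbp, Smad3, Tgfbr2 and Smad7 were named after their values had been seen.

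In astrocytes 2 of the 15 tested cofactors were called, a share near the 15.7% of all genes. Wwtr1, the co-activator TAZ of the Hippo pathway, was higher in ipsi than in Sham by 0.88 ± 0.24 (edgeR adjusted p = 0.0174), and Runx1t1, a co-repressor gene known from its fusion with Runx1 in leukaemia, was lower (log2 difference -2.02 ± 0.44, edgeR adjusted p = 0.00469). Runx1t1 rested on 11 and 9 UMIs in Sham, 22 and 13 in contra, and 8 and 19 in ipsi. Cebpd, the acute-phase transcription factor C/EBP delta and the only tested gene of 16 partner factors, was higher by 3.94 ± 0.58 (edgeR adjusted p = 2.4e-04), from 1 UMI in each Sham library to 50 and 131 in the ipsi libraries. Of 13 tested TGF-beta and BMP genes the receptor gene Bmpr1b was called, at 0.61 ± 0.20 (edgeR adjusted p = 0.0482), and lost its call in 8 of the alternatives. Vegfa, the growth factor of blood vessels and the only tested gene of 14 known RUNX2 targets of bone and cartilage, was lower (log2 difference -1.46 ± 0.22, edgeR adjusted p = 3.2e-04). Of 17 known RUNX targets in blood cells none passed the filter in astrocytes. In OPCs 1 gene each of the partner factors, the blood targets and the bone targets was tested, and 0 of these 3 were called or had an unadjusted p under 0.05.

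Cell cycle and reactive genes are given beside the 5.55% of all genes called in OPCs and the 15.7% in astrocytes, with no test of the lists. In OPCs 11 of 12 tested cell cycle genes were called higher in ipsi than in Sham and 0 lower, and in astrocytes 11 of 11 were called higher. No median is given for these lists, since several of their genes had no UMI in Sham. Diaph3, a formin that assembles actin, gave 3 and 2 UMIs in Sham OPCs, 33 and 19 in contra and 126 and 335 in ipsi (log2 difference 3.90 ± 0.40, edgeR adjusted p = 1.3e-04). Ect2, which is needed for cells to separate at division, gave 2 UMIs in each Sham library of OPCs and 59 and 104 in the ipsi libraries (2.79 ± 0.48, edgeR adjusted p = 0.00317). Of reactive genes 5 of 7 tested were higher in OPCs and 8 of 9 in astrocytes, with 0 lower in either. Gfap, the intermediate filament of astrocytes, gave 27 and 33 UMIs in Sham astrocytes, 172 and 196 in contra and 1307 and 4119 in ipsi (3.90 ± 0.35, edgeR adjusted p = 4.7e-06). Tnc, the matrix protein tenascin-C, gave 4 and 1 UMIs in Sham OPCs and 68 and 333 in the ipsi sums (3.62 ± 0.63, edgeR adjusted p = 0.00324). Several others, among them Mki67, Top2a, Cenpf and Vim in astrocytes and Cd44 and Melk in OPCs, had 0 UMIs in both Sham sums and 24 or more in each ipsi sum.

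In oligodendrocytes and neurons 3.57% and 5.04% of all genes were called in ipsi against Sham, and 1 or 2 calls in a list are too few to set it apart from that. In oligodendrocytes 1 of 17 tested cofactors was called in ipsi against Sham (Runx1t1, -2.33, edgeR adjusted p = 0.0322) and 1 of 13 TGF-beta and BMP genes (Tgfbr2, 1.45, edgeR adjusted p = 0.0252). In neurons 2 of 22 cofactors were called, Yap1 at 1.18 and Cbfa2t3 at -0.86 (edgeR adjusted p = 0.0421 and 0.00987), 2 of 12 partner factors (Jun and Cebpd, both higher), 2 of 20 TGF-beta and BMP genes (Tgfb2 and Tgfbr1, both higher), 1 of 5 blood targets (Itgal, higher) and 2 of 8 bone and cartilage targets (Spp1 and Mmp9, both higher). Itgal and Spp1 are also known from myeloid cells. These genes of oligodendrocytes and neurons were named after their values had been seen. Of the cell cycle list 6 of 14 genes were called higher in neurons and 0 of 2 were called in oligodendrocytes. Of the reactive list 10 of 12 were called higher in neurons and 1 of 4 in oligodendrocytes. Free RNA and doublets remained in these sums. The part of glial RNA in these calls, and in the neuronal Runx1 call, was not tested.

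Across the 59 class-by-library sums of at least 20 nuclei, the genes whose log2(CPM + 5) ran most like Runx1 included Arhgap45 (Pearson r = 0.92), Pik3cg (0.92), Arhgap24 (0.90) and Cd37 (0.90). Runx2 had no gene as close, with Gda (0.75), Trpv2 (0.75), Mrtfa (0.73), Ncoa7 (0.72) and Limk1 (0.70) first. For Runx3 these were Cd74 (0.85), Itgal (0.85), Atp8b4 (0.83), Adcy7 (0.80) and ENSRNOG00000033256 (0.80), and for Cbfb Litaf (0.90), Nipbl (0.90), Map4 (0.89), Zc3h11a (0.89) and Elf1 (0.89). Within the 12 OPC and astrocyte sums, each class centred on its mean, Runx1 ran with Smc1a (0.93), Ulk4 (0.91), Ptprn (0.90), Mkln1 (0.89) and Ttc9c (0.89). There Runx2 ran with ENSRNOG00000066782 (0.95), Adamts9 (0.93), Pitpnb (0.93), Eif4g3 (0.92) and ENSRNOG00000020139 (0.90), and Cbfb with Cd151 (0.91), Erc1 (0.90), Ezh2 (0.89), Ncaph (0.89) and Brca1 (0.88). Sums of a library share its depth and its free RNA, and the best of 11717 genes were taken, so these values only describe likeness.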

How the data were processed

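Per the labels and the study's methods, snap-frozen slices around the largest lesion extent were pooled per arm and hemisphere, nuclei were isolated on an iodixanol gradient, and 10x 5′ libraries were sequenced on 1 flow cell. The authors aligned reads with Cell Ranger 7.0.0 to mRatBN7.2, intronic reads included, and deposited raw UMI counts per gene and nucleus, before their ambient RNA correction, filters and doublet removal. Free RNA and doublets therefore remained in the counts used here. No doublet caller was run, but the gate set aside nuclei that matched a mixture of classes.

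Nuclei with at least 500 UMIs, 250 to 5000 genes and at most 5% mitochondrial UMIs were kept. They were assigned by Poisson likelihood over 107 of 114 listed marker genes to 14 classes, with a margin of 3 natural log units to the next class and at least 2 own markers. Levels of fibroblast, dendritic and lymphocyte classes are not given, and the likeness of genes was computed over all classes but fibroblast with at least 20 nuclei in a library. The members and gene lists were chosen with earlier results of these data known. The gate was also set after member values had been seen: 3 versions were run and member values were printed with each. Version 2 was then adopted by a marker-only measure, the mean percent of marker UMIs from the own list over OPC, astrocyte, microglia and macrophage sums (71.3, 77.2 and 76.1 for versions 1 to 3), and the others are given as alternatives. Splitting OPCs by cell cycle UMIs was likewise chosen with results in view.

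Tests on class sums per library used edgeR 4.0.16 under R 4.3.3 (quasi-likelihood, TMM, filterByExpr, Benjamini-Hochberg over all genes of the class, 3 residual degrees of freedom). The code was tested on simulated data. Alternatives were RLE scaling, DESeq2 1.42.0, no filter, a stricter gate (margin of 8), fewer libraries, the rat pool as a block and other gates. Contra and ipsi libraries came from the same rats per the labels, and the pairing follows from that. Their deviations from the group means correlated at 0.016 in OPCs, 0.072 in astrocytes, 0.019 in oligodendrocytes and 0.165 in neurons. Named genes were the members, up to 6 called genes per list in OPC and astrocyte sums (ipsi against Sham, by absolute log2 difference) and the 5 genes most like each member by Pearson r, of which 1 is not reported here. Genes outside this rule are marked as chosen after their values were seen. Intervals were computed with scipy 1.17.1. Promoter letters came from RefSeq on GRCr8, a build other than that of the counts, and no coordinates were moved between them. A floor of 3 counts stands for a count of 0.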

Additional observations from a re-analysis of the deposited data

Results flagged for a closer look

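Ipsi over contra ratios lay on opposite sides of 1 in the moderate and severe arms for 3 values. Runx1 in nuclei with mixed myeloid markers gave 1.43 (0.840 to 2.63) and 0.540 (0.350 to 0.871). Runx2 in medium spiny neurons gave 1.10 (0.784 to 1.53) and 0.839 (0.605 to 1.15), whose intervals include no difference. Runx2 in other GABAergic nuclei gave 1.19 (1.04 to 1.36) and 0.563 (0.475 to 0.666). Each value compares 1 library with 1 library, and the differences between the arms were not tested.

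Nuclei outside the comparisons also carried the members. In nuclei that matched a mixture of classes, MCAO ipsi over Sham was 5.68 for Runx1 (4.50 to 7.26), 1.90 for Runx2 (1.63 to 2.23), 13.6 for Runx3 (2.17 to 562, from 20 and 1 UMIs) and 2.68 for Cbfb (2.21 to 3.28). In nuclei that reached no class it was 8.99 for Runx1 (4.80 to 19.0), 9.53 for Runx2 (5.49 to 18.1) and 3.33 for Cbfb (2.16 to 5.38). There Runx2 was 263 CPM in sMCAO ipsi, from 266 UMIs in 757 nuclei, against 14.1 to 89.5 CPM in the other libraries. Which cells these nuclei are was not tested.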

How the results depend on the processing

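Depth limits the members most in Sham glia: 6 Runx1 UMIs in OPCs and 2 in astrocytes. Calls in ipsi against Sham were 343 in OPC sums, 143 with DESeq2, 533 with no filter, 221 with the stricter gate, 192 with only the Sham and ipsi libraries, 1342 with gate version 1, and 45 (without Sham L) to 750 (without mMCAO ipsi) with 1 library left out. In astrocytes they were 881, 455 with DESeq2, and 338 (without Sham L) to 1234 with 1 library left out. In oligodendrocytes they were 306, 1142 with no filter, 0 with only the Sham and ipsi libraries (1347 at an unadjusted p under 0.05 in edgeR), and 0 (without any Sham or contra library, with 1183 to 1476 at an unadjusted p under 0.05) to 1827 (without mMCAO ipsi). In neurons they were 821, 1717 with no filter, 348 with only the Sham and ipsi libraries, and 5 (without Sham L) to 2364 (without mMCAO ipsi). Without Sham R the counts were 100 in OPCs, 484 in astrocytes and 18 in neurons, without a contra library 356 and 379 in neurons, and without sMCAO ipsi 468 in oligodendrocytes. A lone library left in a group is assumed to vary like the other groups. Gate versions 1 and 3, added after the data had been seen, moved the OPC Runx1 ratio of ipsi over Sham from 2.19 to 14.3 and 6.42, and version 1 moved OPC Cbfb from 1.32 to 2.64 and macrophage Runx2 of sMCAO ipsi over mMCAO ipsi from 0.718 to 1.28. Leaving out 1 library gave OPC ratios of 1.88 to 2.49 for Runx1, at least 1.91 to 4.79 for Runx2 and 0.95 (without Sham L) to 1.89 for Cbfb, and astrocyte ratios of 0.620 (without Sham L) to 1.68 for Runx1, 1.21 to 1.98 for Runx2 and 1.87 to 2.55 for Cbfb. The oligodendrocyte Runx2 difference of -0.42 ranged from -0.64 (without Sham R) to 0.51 (without Sham L) with 1 library left out and turned to 0.0128 and 0.0104 with gate versions 1 and 3, and the neuronal Runx2 difference of -0.12 turned to 0.16 with the stricter gate. Neuronal Cbfb was called without mMCAO ipsi (0.63, edgeR adjusted p = 0.0038). With the rat pool as a replicate block, calls in ipsi against contra went from 447 to 410 in OPCs, 724 to 1034 in astrocytes, 7 to 5 in oligodendrocytes and 336 to 358 in neurons. No call of a member changed in oligodendrocytes or neurons. The same held in OPCs and astrocytes, where the members were chosen on this contrast and nothing is read from it. Of 419 alternative values of named genes 59 lost a call, 4 turned direction and 1 gained a call. The cause of these moves was not tested.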
